A study of Homo sapiens with 8 samples.

Results

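In 293T cells, 8 promoter regions, those named for SESN2, SNAP47, ANKRD39, SSR1, FAM8A1, ENGASE, ZNF555 and SIX5, carried an open chromatin peak in the least salt-retained fractions of an anion exchange column and no peak in the most retained ones. They were selected on their peak calls: a peak in the flow-through (FT) and in the washes with 20 and 100 mM NaCl (G20 and G100), and none in the washes with 500, 700 and 1000 mM NaCl (G500, G700 and G1000). The 8 regions are part of 1143 that met this rule, here called low-side regions, out of 36845 regions in the whole series. The calls in those 6 libraries therefore chose the regions, and their values, including the differences among FT, G20 and G100, are given as a description. The washes with 200 and 300 mM NaCl (G200 and G300) were not used by the rule.

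The libraries came from 293T, a line of human embryonic kidney cells with the SV40 large T antigen. All 8 fractions came from cells that had been crosslinked, permeabilised and treated with transposons, which insert sequencing adapters into accessible DNA (ATAC-seq), and all were taken from 1 succession of washes of Q Sepharose as far as the labels tell, with no other treatment. Each fraction was 1 library, so there are no replicates and a test sets 1 library against another, not one salt condition against another. Q Sepharose is a strong anion exchanger: it binds negatively charged complexes, and rising salt releases them in the order of how firmly they are held. The G200 file calls its own peaks G50_200, and whether it is the 200 mM wash by itself is not known here.

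Promoters of widely expressed genes are usually open in every cell, and many lie in CpG-rich DNA with GC boxes (bound by SP and KLF factors) and CCAAT boxes (bound by NF-Y). The genes here differ in what they do. SSR1 is a subunit of the translocon-associated protein complex, which helps proteins enter the endoplasmic reticulum; FAM8A1 is a cofactor of the HRD1 ubiquitin ligase complex, which clears misfolded proteins from that compartment; and ENGASE is a cytosolic enzyme that cuts N-glycans from misfolded glycoproteins. SESN2 is a stress-induced sestrin that restrains the growth kinase complex mTORC1, SNAP47 is a SNARE protein of membrane fusion, ZNF555 is a zinc finger protein, SIX5 is a homeobox transcription factor, and ANKRD39 is an ankyrin repeat protein.

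Promoter sequences were matched by gene symbol in a RefSeq table of build GRCh38.p14, which held 10 entries for 7 of the 8 genes, each with 250 bases before and 50 after the start, on the gene's own strand. SIX5 had no entry in it. The peaks are on hg19, so whether a peak lies over the printed bases was not checked, and SNAP47, with 4 entries, is counted by its first. The 6 genes below are those with a single entry: the first 5 carry both motifs that recurred among these genes and FAM8A1, the last, carries the GC box but no CCAAT box. Capitals mark GGGCGG (GC box), CCAAT and CACGTG (E-box) on either strand.

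SESN2: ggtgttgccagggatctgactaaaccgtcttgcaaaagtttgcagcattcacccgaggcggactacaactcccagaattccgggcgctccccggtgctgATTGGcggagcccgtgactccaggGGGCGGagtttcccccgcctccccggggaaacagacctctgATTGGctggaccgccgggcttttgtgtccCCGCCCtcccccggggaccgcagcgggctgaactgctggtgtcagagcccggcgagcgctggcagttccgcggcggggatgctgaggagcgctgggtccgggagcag
ANKRD39: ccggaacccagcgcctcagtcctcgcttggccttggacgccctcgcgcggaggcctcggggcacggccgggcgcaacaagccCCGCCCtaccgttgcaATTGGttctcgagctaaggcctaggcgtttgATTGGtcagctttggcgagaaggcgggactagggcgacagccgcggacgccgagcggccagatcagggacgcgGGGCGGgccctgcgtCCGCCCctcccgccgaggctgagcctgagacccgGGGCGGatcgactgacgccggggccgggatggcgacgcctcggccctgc
SSR1: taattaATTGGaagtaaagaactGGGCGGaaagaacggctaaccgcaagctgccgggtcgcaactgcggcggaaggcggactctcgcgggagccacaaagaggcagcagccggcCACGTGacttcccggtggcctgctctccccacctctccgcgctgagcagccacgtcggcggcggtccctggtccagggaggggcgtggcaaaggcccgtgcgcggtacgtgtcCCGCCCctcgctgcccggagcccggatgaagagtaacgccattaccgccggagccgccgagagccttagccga
ENGASE: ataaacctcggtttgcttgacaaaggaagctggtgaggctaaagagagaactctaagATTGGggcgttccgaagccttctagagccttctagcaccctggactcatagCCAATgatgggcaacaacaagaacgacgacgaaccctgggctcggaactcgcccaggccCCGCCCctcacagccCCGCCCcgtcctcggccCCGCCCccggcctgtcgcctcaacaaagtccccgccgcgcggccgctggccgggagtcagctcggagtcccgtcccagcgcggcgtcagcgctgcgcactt
ZNF555: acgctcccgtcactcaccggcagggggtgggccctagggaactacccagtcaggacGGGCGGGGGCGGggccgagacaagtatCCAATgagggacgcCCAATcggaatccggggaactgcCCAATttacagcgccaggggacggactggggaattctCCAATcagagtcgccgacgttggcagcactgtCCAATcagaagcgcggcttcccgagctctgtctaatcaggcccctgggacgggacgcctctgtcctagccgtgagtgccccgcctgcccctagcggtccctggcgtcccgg
FAM8A1: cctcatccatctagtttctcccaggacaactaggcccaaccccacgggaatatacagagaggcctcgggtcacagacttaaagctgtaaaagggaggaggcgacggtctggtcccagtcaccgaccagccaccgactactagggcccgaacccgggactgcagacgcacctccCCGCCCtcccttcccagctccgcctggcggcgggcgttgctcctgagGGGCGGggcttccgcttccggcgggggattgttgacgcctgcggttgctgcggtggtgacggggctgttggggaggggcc

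In the first entry of each gene, all 7 promoters held a GC box, against 44.6% of the first entries of 27305 genes and 58.5% of those of 15843 protein-coding genes. A CCAAT box stood in 5 of the 7 (SESN2, ANKRD39, SSR1, ENGASE and ZNF555), against 35.7% of all genes and 36.4% of protein-coding genes. ZNF555 had 5 CCAAT boxes, all on its forward strand and starting between 61 and 167 bases before the gene start, and SNAP47 had 8 GC boxes, some overlapping. SSR1 alone held CACGTG (7.43% of all genes), SESN2 alone ACTACAA, which begins the ZNF143 motif (2.95%), and FAM8A1 alone the ETS motif CCGGAAG (10.7%). The remaining motifs of the 12 searched on both strands were in none of the 7: TGACGTCA (CREB/ATF), GCATGCGC (NRF1), TATAAA, AAGATGGCG (YY1), TGATGNAA (ATF4), TGANTCA (AP-1) and TGACGTGG, an element of the unfolded protein response. The 3 further entries of SNAP47 differ: 1 of them holds GCATGCGC and no GC box, and counted by it SNAP47 would leave the genes with a GC box and join those with the NRF1 motif. GC content ran from 64.3% in ENGASE to 75.3% in SNAP47, with a median of 67.0% beside 62.7% over protein-coding genes. The ratio of observed to expected CpG had a median of 0.765 beside 0.763. None of the 7 first-entry starts had a gene starting on the opposite strand within 1000 bp upstream, where 16.6% of all genes had one. The 3 further starts of SNAP47 were not searched for this. The motif matches describe letters in a window and no binding was measured.

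The depth behind the calls differed between libraries. Each list held between 8102 peaks (G700) and 22807 peaks (FT), and the reads over each summit were solved from the fold and p-value that the authors' peak caller gave. Reads were scaled to the library's reads in 4116 ordinary regions called in all 8 lists, which gave factors of 1.37 for FT, 1.28 for G20, 0.886 for G100, 0.997 for G200, 1.31 for G300, 0.752 for G500, 0.639 for G700 and 0.766 for G1000. A scaled read number is the number of reads over its factor. The 3 libraries without a call thus had the lowest factors. The factors count reads in shared regions and are not a measure of depth alone. By genome background G200 was lower, at 0.239 reads in a window, beside 0.279 in G500, 0.248 in G700 and 0.291 in G1000.

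Each of the 8 regions had exactly 1 peak in FT, G20 and G100. Of the 9790 regions called in those 3 lists, 11.7% had no peak in G500, G700 or G1000. The −log10 q of the 8, the authors' value, had medians of 10.9, 12.5 and 10.6 in FT, G20 and G100. Over all low-side regions the medians were 5.78, 5.36 and 3.96, and over all peaks of these lists 5.89, 6.03 and 5.37. By mean rank in the 3 lists, the 8 stood between the 4th (SESN2) and the 18th place (FAM8A1) of the 1143. The weakest call among them was SNAP47 in G100, with a −log10 q of 6.56 and 15 reads. Just outside the rule, 1828 regions had peaks on the low-salt side and in exactly 1 high-salt list, with a median −log10 q of 4.02 there. Of those, the region with the best mean rank in the low-salt lists, chr17:41465759-41466833, had a −log10 q of 7.22 and 14 reads in G1000. The number of low-side regions depends on the libraries of the rule: it was 1842 without G20, 3481 without G100, 1872 without G500 and 1878 without G1000. With every list shortened to the 8102 strongest peaks it was 129.

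**Figure D1:**
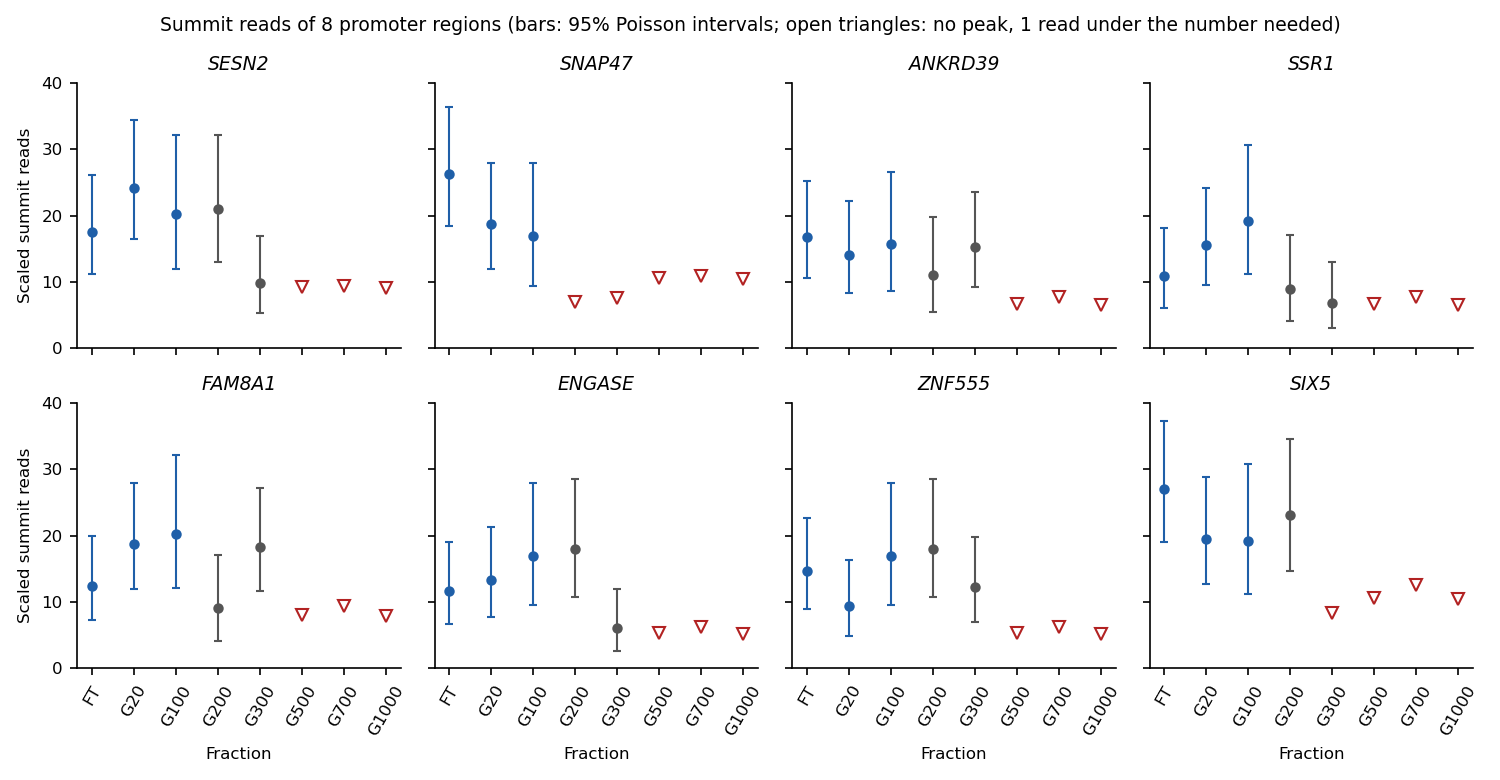
Scaled summit reads (y axis, recovered reads over the library's factor) of each promoter region in the 8 fractions (x axis). Points are libraries with a peak, blue for FT, G20 and G100 and grey for G200 and G300, with 95% Poisson intervals for counting error; open triangles stand 1 read under the number needed for a call at the scaled mean local background of FT, G20 and G100, where no peak was called. SNAP47 has triangles from G200 on and SIX5 from G300 on, and the other 6 from G500 on.

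Among the genes of the endoplasmic reticulum and glycoprotein handling, SSR1 (chr6:7313035-7313796) had 15 reads in FT, 20 in G20 and 17 in G100, then 9 in G200 and 9 in G300. Scaled, these were 11.0, 15.6, 19.2, 9.03 and 6.86, so the middle washes were lowest, although the 95% Poisson intervals of FT and G300 (6.14 to 18.1 and 3.13 to 13.0 scaled reads) overlap. FAM8A1 (chr6:17600177-17601250) had 17, 24 and 18 reads in FT, G20 and G100, 9 in G200 and 24 in G300. Its scaled reads were 12.4, 18.8, 20.3, 9.03 and 18.3, with G200 the lowest of the 5 libraries.

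Like SSR1 and unlike FAM8A1, ENGASE (chr17:77070483-77071241) had more scaled reads in G200 than in G300. It had 16, 17 and 15 reads in FT, G20 and G100, 18 in G200 and 8 in G300, or 11.7, 13.3, 16.9, 18.1 and 6.09 scaled reads. G200 gave ENGASE its strongest call, with a −log10 q of 14.8, and G300 its weakest, with 3.49. The peak thus ranked within the top 11.0% of the G200 list and at 75.7% of the G300 list.

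SESN2 (chr1:28585682-28586410), the stress-response gene, was the strongest of the 8 in 1 library, G20, with 31 reads and a −log10 q of 19.7. It had 24 reads in FT, 18 in G100, 21 in G200 and 13 in G300. In the order FT, G20, G100, G200 and G300 the scaled reads were 17.5, 24.2, 20.3, 21.1 and 9.90, so G300 lay below the other 4.

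ANKRD39 (chr2:97523466-97524297) varied least among the 6 regions called in 5 lists. It had 23, 18, 14, 11 and 20 reads in FT, G20, G100, G200 and G300. Its highest scaled number, 16.8 in FT, was 1.52 times its lowest, 11.0 in G200, against 2.96 times in ENGASE, which varied most.

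Of the 2 transcription factor genes, ZNF555 (chr19:2840740-2841659) had 20, 12, 15, 18 and 16 reads in FT, G20, G100, G200 and G300, or 14.6, 9.38, 16.9, 18.1 and 12.2 scaled reads. G20 was its lowest library. SIX5 (chr19:46272522-46272938) had 37, 25, 17 and 23 reads in FT, G20, G100 and G200, or 27.1, 19.5, 19.2 and 23.1 scaled reads, and no peak in G300.

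The region named for SNAP47 (chr1:227915828-227916219), the SNARE gene, had the shortest run of calls. It had 36, 24 and 15 reads in FT, G20 and G100, or 26.3, 18.8 and 16.9 scaled reads, and no peak in any later fraction. This holds for that region only. Another region, 6453 bp away, was called in G200, G300 and G700, and whether it covers another start of the gene was not tested. FT was the highest library for both SNAP47 and SIX5, and was not the highest for 5 of the other 6.

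The middle washes, which the rule did not use, called most of the 8. A peak was present in G200 for 7 of 8 (87.5%, 95% Clopper-Pearson interval 47.3 to 99.7) and in G300 for 6 of 8 (75.0%, 34.9 to 96.8). Among all low-side regions the shares were 55.6% in G200 and 71.6% in G300, and 43.6% were called in both, as 6 of the 8 were. These shares are not matched for strength, and the 8 were not drawn at random. Their median reads in FT, G20 and G100 were 21.5, 22 and 16, beside 13, 11 and 8 over low-side regions. SIX5 was called in G200 alone and SNAP47 in neither, a pattern found in 12.0% and 16.4% of low-side regions. At that equal list length, FAM8A1 lost its calls in FT and G200, and G300 held 3 of the 8 (ANKRD39, FAM8A1 and ZNF555).

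SNAP47 and SIX5 were not called in every middle wash. The factor of G200 lay below those of FT, G20 and G300, and its genome background, at 0.239 reads in a window, was the lowest of the 8 libraries. From its reads in FT, G20 and G100, SNAP47 would have had 21.2 reads in G200 and 27.9 in G300, where 8 and 11 reads would have reached the weakest p-value called at its local background. SIX5 would have had 29.4 reads in G300, where 12 were needed. Its expected number in G200 was 22.3 and 23 were found. The reads needed take the local background of the low-salt libraries, scaled, so they are estimates that can be too high or too low. At SESN2 the mean local background in FT, G20 and G100 was 5.21 times the genome background. In G300 it was 4.42 times and in G200 8.27 times. A peak caller can also drop a peak that is too short, which the reads needed do not count.

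G200 and G300 did not differ beyond the test for any of the 6 promoters called in both. Over 11148 regions, 0.547% differed in reads (61 regions, 20 higher in G200 and 41 in G300; two-sided exact binomial test with Benjamini-Hochberg adjustment), and 0 of the 6 did. Unadjusted, 5.48% of all regions and 2 of the 6 had a p under 0.05. ENGASE had 2.96 times the scaled reads in G200 (95% Clopper-Pearson interval 1.23 to 7.88; exact binomial p = 0.0092, adjusted p = 0.446). SESN2 had 2.13 times (1.02 to 4.62; exact binomial p = 0.0366, adjusted p = 0.807). FAM8A1 pointed the other way, at 0.494 times (0.202 to 1.10; exact binomial p = 0.0784, adjusted p = 0.971), and ANKRD39 was at 0.724, SSR1 at 1.32 and ZNF555 at 1.48, with intervals that include 1.

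Scaling decided that outcome for SESN2 and ENGASE. With reads scaled to each list's genome background in place of the shared regions, the ratio was 3.35 for SESN2 (adjusted p = 0.0176) and 4.67 for ENGASE (adjusted p = 0.00772, both in the exact binomial test), and 871 regions passed. ANKRD39 turned from 0.724 to 1.14 under that scaling. With a beta-binomial test that carries the observed spread of these 2 libraries, 1.31 times that of counting, the adjusted p of both was 1 and 5 regions passed.

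The reads of FT, G20 and G100 also chose the regions, since a peak in all 3 was required, so the ratios among them are a description and nothing is read from a test. In 24 comparisons (8 promoters in 3 pairs of libraries) 0 were called, as were 0 among all 1143 low-side regions and 0.109% of 35884 comparisons over all regions. Ratios ran from 0.554 (ZNF555, G20 over G100; interval 0.237 to 1.27) to 1.56 (ZNF555, FT over G20; 0.726 to 3.50). SSR1 was at 0.572 in FT over G100 (0.266 to 1.22) and SNAP47 at 1.55 (0.83 to 3.06) in the same pair.

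**Figure D2:**
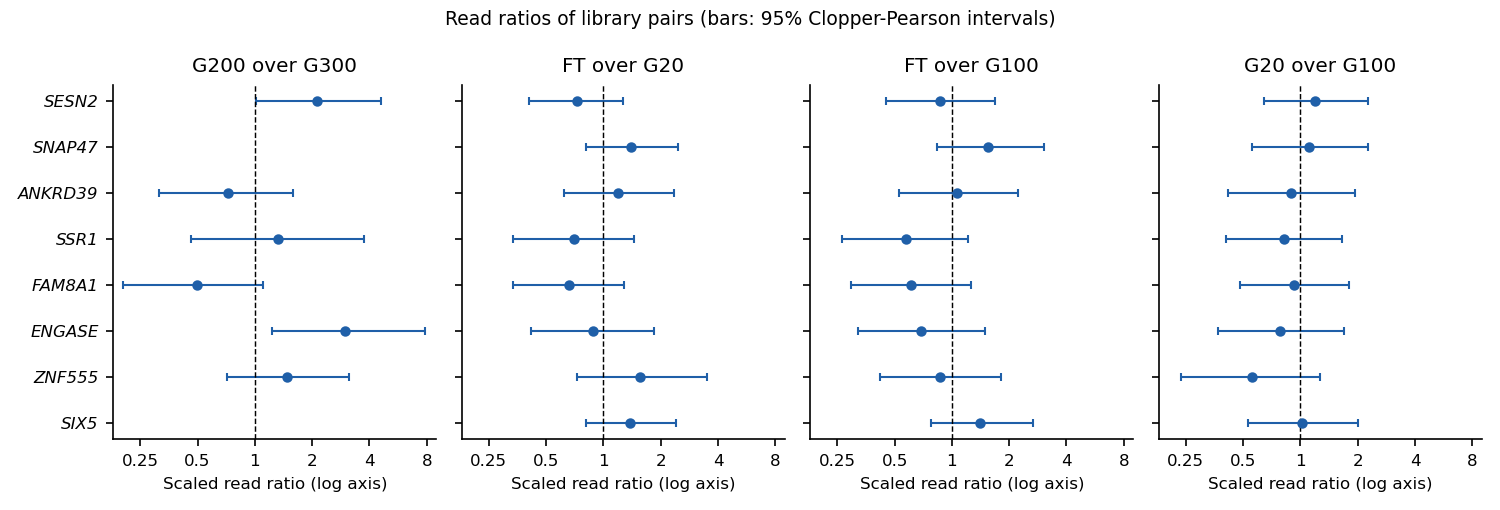
Ratio of scaled reads between 2 libraries (x axis, log scale) for each promoter (y axis), with 95% Clopper-Pearson intervals; the dashed line is a ratio of 1. Only ENGASE and SESN2 in G200 over G300 have intervals that leave out 1, and SNAP47 and SIX5 have no point there because G300 holds no peak.

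In the 3 libraries without a call, the number of reads is not listed, and what the absence can show depends on depth. For each promoter the reads expected from FT, G20 and G100 were set beside the fewest summit reads that would have reached the weakest p-value called in that list. Expected reads ran from 10.0 (ZNF555) to 16.8 (SIX5) in G500, and for the same promoters from 8.51 to 14.3 in G700 and from 10.2 to 17.1 in G1000. Between 5 and 9 reads were needed in each list. All 24 expected numbers exceeded the number needed, by 1.53 times (FAM8A1 in G700) to 2.08 times (ENGASE in G1000).

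SIX5, for example, needed 9 reads in G500, G700 and G1000, at the mean local background of FT, G20 and G100, and 10 in G500 and G1000 at the highest of these backgrounds. Summed over the 3 libraries, 1 read under the number needed came to 24 reads at SIX5, where 48.2 were expected, and to 12 at ENGASE, where 29.3 were expected. Over the 8 promoters these sums were between 40.9% (ENGASE) and 50.2% (SNAP47) of the expected reads. At the highest local background they were between 41.8% (ZNF555) and 58.3% (FAM8A1). By this estimate, reads up to those levels would not be detectable as a peak at this depth. The numbers needed can be too high or too low, so the level that escapes a call could be lower or higher. Because the rule took regions that were called on one side and uncalled on the other, the expected numbers can be too high and no test was made.

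The expected numbers were set against all regions in the same way. Of the 9106 regions called in FT, G20 and G100 whose expected reads reached those needed in all 3 high-salt lists, 9.11% were called in none. Of the 4480 whose expected reads exceeded those needed by at least the 1.53 times of the lowest of the 8 promoters, 0.938% (42 regions) were called in none. The limit of that second count was taken from the 8 promoters themselves, so it places them and supports nothing. Over all low-side regions the median expected numbers were 7.02, 5.97 and 7.16 in these lists. Of the 1143, 830 reached the reads needed in all 3 lists, 67 in none of them, and the rest in only some.

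**Figure D3:**
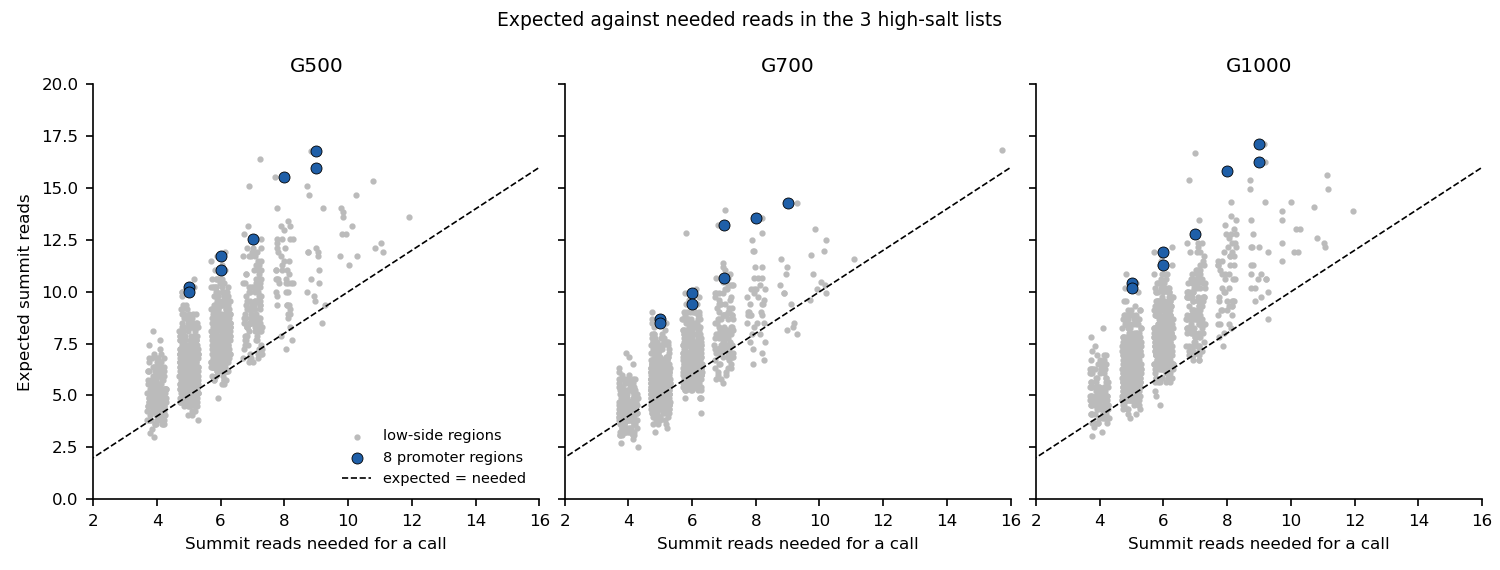
Expected summit reads from FT, G20 and G100 (y axis) against the reads needed for a call at the scaled local background (x axis, spread sideways for the grey points) in G500, G700 and G1000. Blue points are the 8 promoters and grey points the low-side regions that fall within the axes. All blue points lie above the dashed line of equality, at 1.53 to 2.08 times the reads needed.

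The G200 and G300 reads, which played no part in the choice, gave lower expectations than FT, G20 and G100 for every promoter but ZNF555. In G500, SESN2 had 11.1 expected reads beside 15.5, and ZNF555 11.1 beside 10.0. For this, an uncalled library was entered at 1 read under the number needed there. Of 24 expected numbers, 18 reached the reads needed, and those that did not belong to SSR1 and SNAP47. The entered number is the most an uncalled library would hold by this estimate. With fewer reads entered, the numbers of SIX5 and SNAP47 would be lower, so 18 is an upper count. SSR1 was called in both libraries, with 5.86, 4.98 and 5.97 expected reads in G500, G700 and G1000, where 6 were needed in each. SNAP47 was called in neither, and 7 reads in G200 and 10 in G300 gave 5.53, 4.71 and 5.64 expected reads, where 9, 8 and 9 were needed. SIX5, with 23 reads in G200 and 11 entered for G300, had 11.1, 9.41 and 11.3 expected reads, where 9 were needed in each. From G200 alone these were 17.3, 14.8 and 17.7. The reads needed take the mean local background of FT, G20 and G100, which was 6.93 times the genome background at SIX5. In G200 the local background there was 14.9 times. The reads needed at that higher level were not worked out, so whether SIX5 would still reach them is not known.

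The summits of SNAP47 and SIX5 varied least in position. The summits of SNAP47 lay within 7 bp of each other in its 3 lists and those of SIX5 within 30 bp in its 4, while those of the others spread over 124 bp (FAM8A1) to 238 bp (ENGASE). Their peaks were also narrow, at 317 to 392 bp and 313 to 366 bp. The widest was that of FAM8A1 in G20, with 1064 bp, and the same region measured 324 bp in G100. Over the 8 regions the width in FT had a median of 671.5 bp, beside 534 bp over low-side regions, and in G100 of 352.5 bp beside 401.5 bp.

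**Figure D4:**
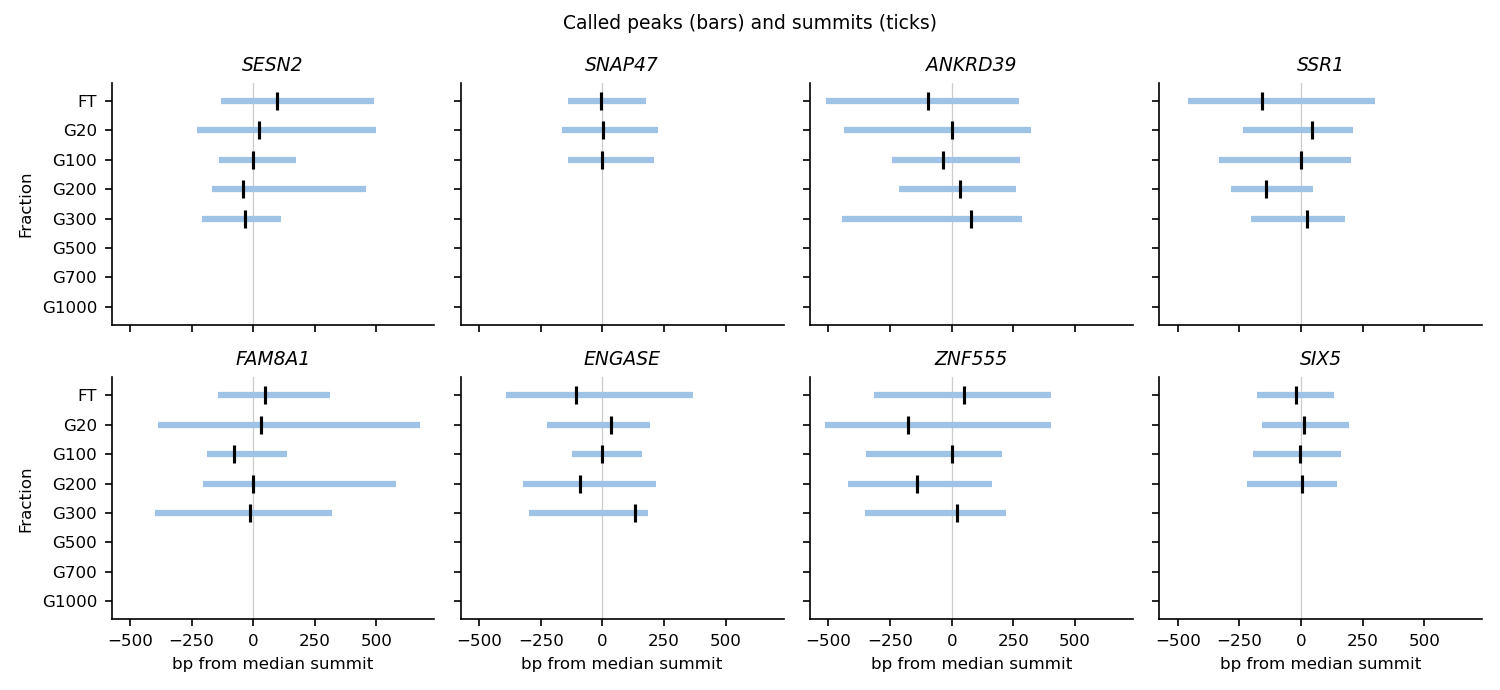
Peaks (bars) and summits (black ticks) of each promoter region by fraction (y axis), in bp from the median summit of that region (x axis). The ticks of SNAP47 and SIX5 line up within 7 bp and 30 bp, and those of the other 6 regions spread over 124 bp to 238 bp.

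SNAP47 and SIX5 also lay in surroundings with more reads. The background that the peak caller used around a summit was 7.16 times the genome background for SNAP47 in FT, 6.71 times in G20 and 5.59 times in G100, and 8.33, 7.24 and 5.23 times for SIX5. In G200 it was 14.9 times at SIX5. At SESN2, the next by mean, it was 5.00, 5.97 and 4.65 times in FT, G20 and G100, and 8.27 times in G200. At ZNF555 it was 1.91, 1.92 and 2.41 times in FT, G20 and G100, the lowest mean of the 8. Reads needed for a call rise with this background, and its part in the absent calls was not tested.

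Regions beside the promoters were called at high salt in 4 loci. Within 20 kb, 6 of the 8 promoters had another region, 9 in all, and 3 of these were called in all 8 lists. The nearest to SIX5, chr19:46273574-46274143, began 636 bp away. It had 50, 30, 16, 38 and 25 reads in FT, G20, G100, G200 and G300, and 13 in G500, 11 in G700 and 16 in G1000. Scaled, it went from 36.6 in FT to 23.4 in G20, 18.1 in G100, 38.1 in G200 and 19.04 in G300, and was at 17.3, 17.2 and 20.9 in the 3 high-salt libraries.

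At SESN2 the neighbouring region chr1:28573458-28574161 lay 11521 bp away and was called in every list, with 18, 16 and 25 reads in G500, G700 and G1000. Its scaled reads were 23.9, 25.03 and 32.6 there and 27.8, 37.5 and 23.7 in FT, G20 and G100, so the ranges overlapped. Beside SNAP47, the nearest region, chr1:227917824-227918468, lay 1605 bp away and was called in FT, G100 and G300 only. The region chr1:227922672-227923504 lay 6453 bp away and was called in 6 lists. It had 10 reads in G200, 25 in G300 and 16 in G700, and no peak in G500 or G1000. On GRCh38.p14 the first SNAP47 entry begins at 227728381, and the further ones begin downstream, at 227734746, 227735185 and 227735445. Whether the region 6453 bp away lies over one of those further starts was not tested. Near FAM8A1, chr6:17584312-17584862 lay 15315 bp away, with 8 reads in G500 and no peak in G700 or G1000. ENGASE and ZNF555 had no other region within 20 kb, and their nearest high-salt peaks were 98847 bp and 20652 bp away.

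Among the 492 other low-side regions called in G200 and G300, those most like the summed reads of the 6 promoters called in both were found by the distance between log2 ratios of reads to expected reads over 5 libraries. The summed promoters had 115, 122, 97, 86 and 90 reads in FT, G20, G100, G200 and G300, or log2 ratios of −0.05, 0.13, 0.33, −0.02 and −0.35. The nearest regions were chr3:158288474-158289300 (distance 0.0961), chr8:143807980-143808863 (0.163) and chr17:8279607-8280485 (0.179), each with 8 to 14 reads in a library. The 6 promoters themselves lay at 0.668 (SESN2) to 1.02 (FAM8A1) from their own sum, against a median of 0.797 over the 492 regions.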

How the data were processed

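The submitters' processing notes name HOMER (no version), MACS2 2.2.1 and Bowtie2 2.2.6, and the builds hg19 and mm10. Chromosome names and positions are those of hg19, counted from 1. For the peak caller's settings nothing is given in the sources used here. The authors deposited 1 peak list per library with a score, a fold enrichment (a ratio), the −log10 p and −log10 q, and the summit. Positions of genes on hg19 were not used here, so other genes of the members' pathways were not analysed here. Gene names come with the intervals, and all 8 lie on the chromosome that RefSeq gives.

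The 8 regions, motifs and lists were chosen with earlier results of these data known. Peaks sharing at least 1 bp were merged into regions with pandas 2.3.3. Summit reads were solved from fold and p-value (scipy 1.17.1; whole numbers up to 3000, match within 0.001 of −log10 p, the nearest kept where its error was 10 times smaller), for at least 99.96% of each list, and the method was checked on simulated data. Ordinary regions were on placed chromosomes, over 1 Mb from the longest peak-free stretch and over 20 kb from the ends. Exact binomial tests covered all regions called in both libraries of a pair, with Benjamini-Hochberg adjustment and a threshold of 0.05. Intervals are 95% and cover counting error only. The named regions are the 8 and the 3 most like their sum. Other choices of q threshold, list length, overlap, scaling, spread and libraries were tried.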

Additional observations from a re-analysis of the deposited data

How the results depend on the processing

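All 8 promoters met the rule with −log10 q of at least 2 or 3, with an overlap of 50% of the peak or interval, and with the summit inside the interval, and 7 did at equal list length, where 6 were called in G200 and 3 in G300. Low-side regions numbered 129 at equal list length, 1842 without G20, 3481 without G100, 1872 without G500 and 1878 without G1000. Between G200 and G300, 871 regions and 2 promoters passed with background scaling and 5 regions with the beta-binomial test, beside 61 and 0. The reads of FT, G20 and G100 also chose the regions, so their counts are a description and nothing is read from them for the promoters. Among these 3 libraries, 374 comparisons passed with background scaling and 17 with the beta-binomial test, beside 39, and 0 promoters in each case. The cause was not tested. The other 39 alternative values stayed within 1.5 times of those reported. Expected reads from G200 and G300 (called entries, or with limits for uncalled ones) and the highest local background were alternatives chosen after seeing the data. No paired analysis was possible because each fraction had 1 library.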
